A study of Mus musculus with 14 samples.

Results

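The nuclear genes that encode the enzymes of oxidative phosphorylation were described by the H3K4me1 sites at their promoters and over their bodies in immortalized mouse embryo fibroblasts (iMEF). Members were the GENCODE M21 protein-coding genes whose symbols begin with Ndufa, Ndufb, Ndufc, Ndufs, Ndufv, Sdha to Sdhd, Uqcr, Cox4 to Cox8 or Atp5, with the Ndufaf assembly factors left out. The rule found 86 gene entries with 85 symbols among 21938 protein-coding genes. They comprised 75 widely expressed subunits, 8 tissue-restricted isoforms and 3 other entries. The other entries were Cox7a2l, a supercomplex factor, Atp5s, a factor named for ATP synthase, and a read-through transcript annotated as Atp5o beside the Atp5o gene itself.

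The ChIP-seq libraries came from NG3, a clone of iMEF cells whose endogenous Ash2l had been deleted and which live on a lentiviral human ASH2L fused to FKBP12 F36V. This tag lets the compound dTAG-13 direct the fusion protein to degradation, and all groups share the deletion and the fusion. The 12 H3K4me1 libraries were 2 replicates each of cells without dTAG and of cells after 30 min, 2 h, 4 h, 8 h or 16 h of dTAG, with 2 input libraries, 1 from untreated cells and 1 from 16 h. NG3 is 1 clone, so nothing here separates the clone from the cell type. The values used were the start and end positions of 160144 H3K4me1 sites, listed as a single set over all samples. The table gives no value per library or time, so the depth is unknown, no comparison between time points could be made, and no p-value is given. It also holds no expression, and the fibroblast label was not checked. The set pools untreated and dTAG-treated cells, and the paper reports that H3K4me1 increased at many promoters after ASH2L loss. Which sites were present in untreated cells cannot be told, so no arrangement described here can be read as the untreated state. Wilson intervals (95%) beside shares cover the counting of genes alone.

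Oxidative phosphorylation couples electron transport through complexes I to IV of the inner mitochondrial membrane to ATP synthesis by complex V. Most subunits are encoded in the nucleus and are made in nearly every cell, while some subunits of complex IV have isoforms that replace them in muscle, lung or testis. Known regulators of the nuclear subunit genes include NRF1, the ETS factor GABP and YY1, which bind close to the transcription start site (TSS). At active promoters, trimethylated H3K4 usually covers the nucleosomes next to the TSS and H3K4me1 lies further out, whereas enhancers carry H3K4me1 at their centre.

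The promoter sequences of widely expressed and tissue-restricted subunits of complex IV can be set side by side for their CpG dinucleotides. Only the 4 restricted isoforms with a matched RefSeq promoter could be shown. Below are the 100 bases before the TSS for 4 such pairs, 5′ to 3′, from RefSeq (GRCm38.p6), ending at the RefSeq or GENCODE start that lies further upstream. Capitals mark CpG. Each widely expressed gene is followed by its restricted isoform.
Cox8a (chr19:7217617-7217716, minus strand): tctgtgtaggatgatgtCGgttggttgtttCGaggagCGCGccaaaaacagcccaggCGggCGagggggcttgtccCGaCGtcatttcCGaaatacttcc
Cox8b (chr7:140900447-140900546, minus strand): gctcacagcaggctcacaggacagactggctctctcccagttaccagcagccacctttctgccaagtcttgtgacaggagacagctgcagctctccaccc
Cox6b1 (chr7:30626152-30626251, minus strand): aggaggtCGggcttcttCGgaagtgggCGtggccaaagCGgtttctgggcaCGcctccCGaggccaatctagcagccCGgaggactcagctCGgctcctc
Cox6b2 (chr7:4753095-4753194, minus strand): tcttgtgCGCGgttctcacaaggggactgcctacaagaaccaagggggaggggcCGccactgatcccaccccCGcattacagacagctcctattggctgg
Cox7a2 (chr9:79759879-79759978, minus strand): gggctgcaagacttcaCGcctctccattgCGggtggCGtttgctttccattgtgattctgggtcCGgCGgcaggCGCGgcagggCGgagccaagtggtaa
Cox7a1 (chr7:30184044-30184143, plus strand): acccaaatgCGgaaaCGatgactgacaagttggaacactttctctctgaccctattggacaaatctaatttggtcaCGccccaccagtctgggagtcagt
Cox7b (chrX:106015600-106015699, plus strand): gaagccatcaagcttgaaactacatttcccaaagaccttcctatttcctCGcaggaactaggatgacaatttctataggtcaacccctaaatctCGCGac
Cox7b2 (chr5:71548206-71548305, minus strand): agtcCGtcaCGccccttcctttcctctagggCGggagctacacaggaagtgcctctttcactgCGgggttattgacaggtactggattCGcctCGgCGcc
Cox8a had 9 CpG in this stretch and Cox8b, an isoform of heart, skeletal muscle and brown fat, had 0. Cox6b1 had 8 and the testis isoform Cox6b2 had 4, and Cox7a2 had 8 and the muscle isoform Cox7a1 had 3. The last pair went the other way, with 3 CpG in Cox7b and 7 in the testis isoform Cox7b2.

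Over the wider promoter, 70 of the 75 widely expressed subunits (93.3%) had a CpG island within 1 kb of the TSS, against 54.5% of all protein-coding genes, and none of the 8 restricted isoforms had 1. This difference rests largely on short islands: with islands of at least 500 bp, 32 of 75 subunits (42.7%) and 36.5% of all protein-coding genes had 1. The CpG observed-to-expected ratio over 500 bp on each side of the TSS had a median of 0.74 in the subunits and 0.33 in the isoforms. In the isoforms it ran from 0.19 to 0.47. The median over all coding genes with a CpG island was 0.76, and over those without an island 0.21. GC content had medians of 56.6% in the subunits and 53.8% in the isoforms.

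RefSeq promoter windows (250 bases before and 50 after the start) were matched for 69 members, 63 of them widely expressed subunits. The NRF1 motif GCGCANGCG, on either strand, was present in 19 of the 63 subunit windows (30.2%), in 9.13% of the windows of all protein-coding genes and in 15.1% of those with a CpG island. Of these genes, 6 held the motif in the 100 bases just before the start. They are shown because they include 2 subunits of complex II, and capitals mark the motif, which can overlap itself on the other strand.
Ndufa11 (chr17:56717662-56717761, plus strand): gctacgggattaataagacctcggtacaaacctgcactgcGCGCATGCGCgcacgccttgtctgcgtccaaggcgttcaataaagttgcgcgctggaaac
Ndufs5 (chr4:123718203-123718302, minus strand): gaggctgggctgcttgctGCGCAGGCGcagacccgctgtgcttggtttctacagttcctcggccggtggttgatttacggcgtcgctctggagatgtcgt
Sdha (chr13:74350281-74350380, minus strand): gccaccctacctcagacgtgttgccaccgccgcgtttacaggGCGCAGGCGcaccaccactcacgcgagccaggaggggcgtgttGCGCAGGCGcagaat
Sdhd (chr9:50603850-50603949, minus strand): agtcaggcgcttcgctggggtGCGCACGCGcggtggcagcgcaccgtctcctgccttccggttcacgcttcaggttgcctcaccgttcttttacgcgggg
Cox6a1 (chr5:115348982-115349081, minus strand): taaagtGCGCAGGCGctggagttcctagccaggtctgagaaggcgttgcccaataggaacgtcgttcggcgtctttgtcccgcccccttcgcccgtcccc
Atp5h (chr11:115419963-115420062, minus strand): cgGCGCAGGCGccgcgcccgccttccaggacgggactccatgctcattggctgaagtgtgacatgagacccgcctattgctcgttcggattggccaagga
Sdha, the flavoprotein of succinate dehydrogenase, held 2 separate matches in these 100 bases. In Ndufa11, an accessory subunit of complex I, the 2 matches overlapped on opposite strands. The YY1 motif AAGATGGCG was in 6 of 63 subunit windows (9.52%), against 2.06% of all windows and 3.31% of island windows. The ETS motif CCGGAAGT was in 5 (7.94%), against 5.56% and 8.84%. No ETS match overlapped an NRF1 match in the members. The GC box GGGCGG was in 39.7% of subunit windows, against 48.2% of all and 72.1% of island windows, and the TATA box TATAAA in 7.94%, against 13.1% and 5.93%. CCAAT was in 41.3%, against 38.9% and 37.8%. In mitochondrial ribosomal protein genes, NRF1 was in 23.2% of windows and YY1 in 11.6%. In cytosolic ribosomal protein genes the shares were 12.3% and 5.26%. Neither motif is therefore particular to the subunits.

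H3K4me1 sites lay within 1 kb of the reference TSS in 76 of the 86 members, against 64.3% of all protein-coding genes, and the count within 3 kb was also 76, against 68.9% of all. Of the widely expressed subunits, 71 of 75 (94.7%, 87.1 to 97.9) had a site within 1 kb. The share over all protein-coding genes with a CpG island was 92.9%, and over those without an island 30.0%. Of the 5 subunits without an island, 4 had a site within 1 kb: Ndufa9, Ndufc1, Uqcrb and Atp5j2. Their CpG ratios were 0.67, 0.66, 0.65 and 0.22, against a median of 0.21 over all coding genes without an island. By complex, the counts were 35 of 36 for complex I, 4 of 4 for complex II, 7 of 8 for complex III, 10 of 11 for complex IV and 15 of 16 for complex V. At most 1 subunit gene per complex lacked a site.

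**Figure D1:**
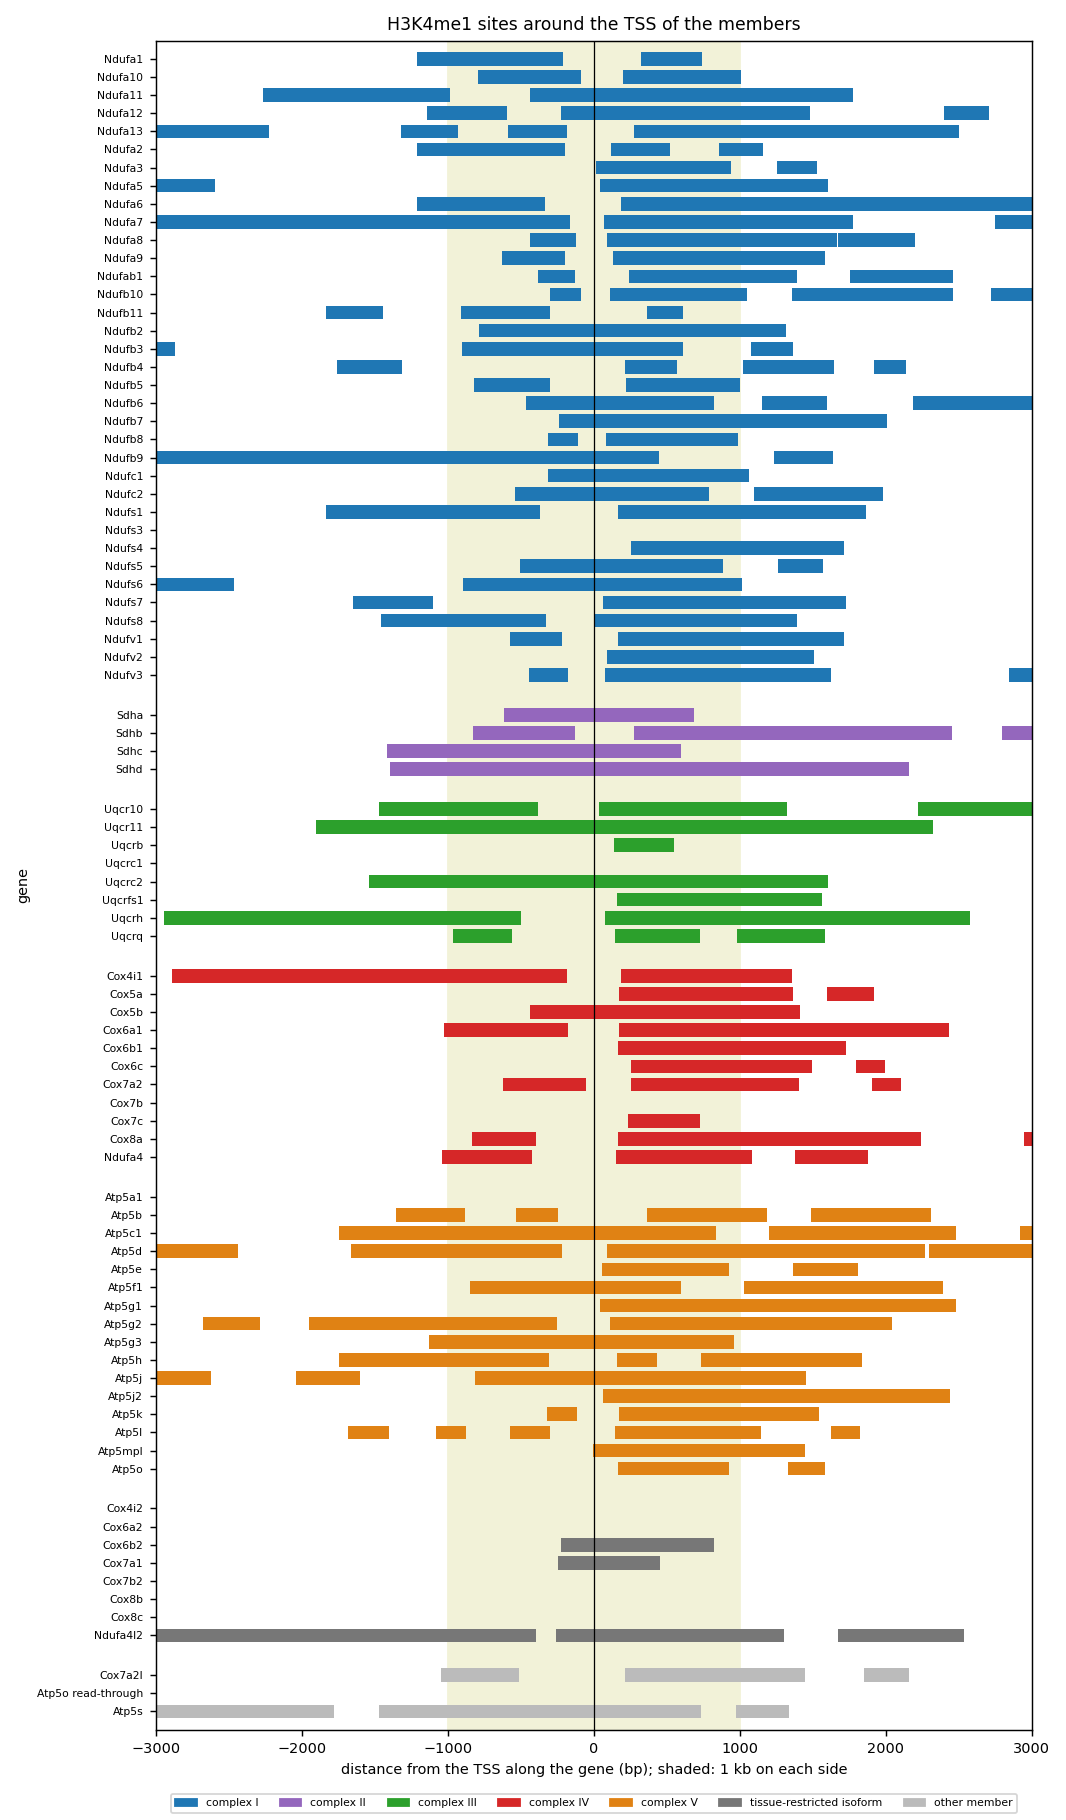
H3K4me1 sites (bars) around the TSS of the members shown, 1 row per gene, with the distance from the TSS along the gene in bp on the x axis and the 1 kb windows shaded. Ndufs3, Uqcrc1, Cox7b and Atp5a1 are the subunit genes with an empty row, and 5 of the 8 tissue-restricted isoforms have none within 3 kb.

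The 4 subunit genes without a site were of different kinds. Ndufs3 (chr2:90894634-90904827, minus strand), a core subunit of complex I, Uqcrc1 (chr9:108936633-108949623, plus strand), a core protein of complex III, and Atp5a1 (chr18:77773729-77782869, plus strand), the alpha subunit of the ATP synthase head, each had a CpG island. Each lay in a stretch without any listed site, 205051 bp long for Ndufs3, 168609 bp for Uqcrc1 and 515838 bp for Atp5a1. The absence was shared with neighbours: these stretches also held the TSS of 3, 3 and 4 other island genes, among them Celf1 beside Ndufs3 and Haus1 beside Atp5a1. In the whole table, 42 site-free stretches of at least 100000 bp held 3 or more island genes each, 192 island genes in all. Why these stretches hold no site was not tested. Whether the table used here is complete over them is not known, so these 3 genes can be described only as without a listed site. Cox7b (chrX:106015700-106022450, plus strand), a small subunit of complex IV, had no CpG island, and its nearest site was 3962 bp upstream. It was the sole subunit gene without a site outside those stretches.

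Sites were arranged around the TSS in 3 ways. The TSS was free with a site on both flanks within 1 kb in 33 of 75 subunits (44.0%, 33.3 to 55.3), against 24.0% of all island genes. With sites under 500 bp left out, it was so in 17 (22.7%), against 15.0%. The TSS lay inside a site in 22 (29.3%, 20.2 to 40.4), against 56.8% of island genes. Sites lay downstream only in 16 (21.3%), against 10.9%, and upstream only in 0, against 1.25%, which at 0 of 75 says little. Subunit genes were shorter than island genes in general, with a median of 7456 bp against 25024 bp. The part of gene length in these shares was not tested.

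**Figure D2:**
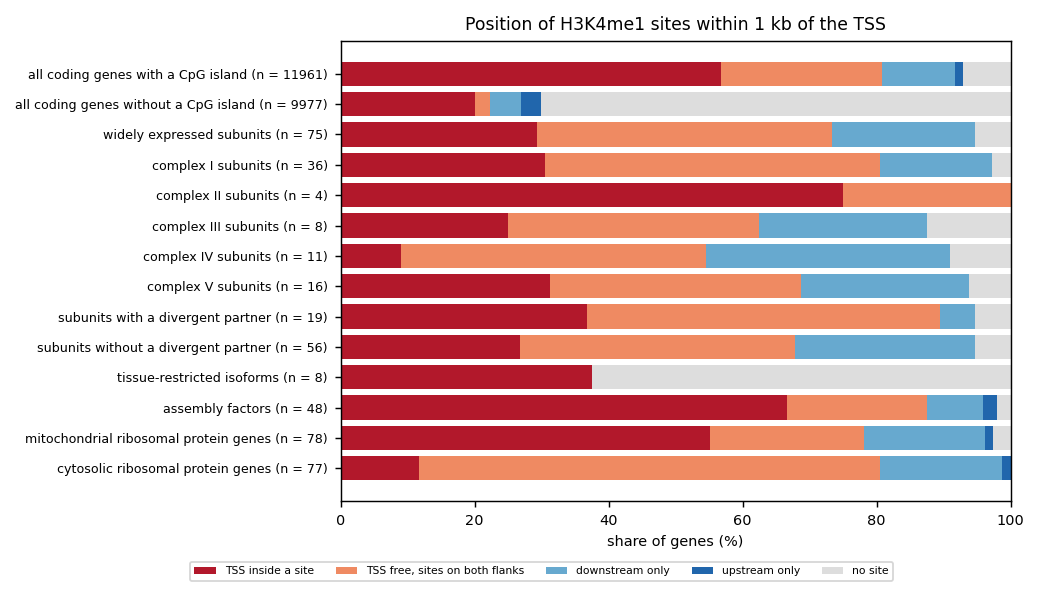
Share of genes (x axis, %) by where H3K4me1 sites lie within 1 kb of the TSS, 1 bar per gene list. The segment for a TSS inside a site takes 29.3% of the widely expressed subunits, 56.8% of island genes, 55.1% of mitochondrial and 11.7% of cytosolic ribosomal protein genes.

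Averaged over the 75 subunits, the share of bases inside a site had its lowest value within 500 bp of the TSS, 29.2%, in the 100 bp before it. Upstream it reached 56.2% at 400 to 300 bp, and downstream it reached 93.0% at 400 to 500 bp. For all island genes the minimum in the same bin was 55.4%, and the maxima were 61.1% upstream and 84.0% downstream. The subunits thus had a deeper dip at the TSS and a higher shoulder downstream of it than island genes. In mitochondrial and cytosolic ribosomal protein genes the minima were 54.2% and 12.1%, and the downstream maxima 94.4% and 91.9%. The high downstream shoulder is therefore not particular to the subunits. Over the 1 kb on each side, a median of 838 bp downstream and 467 bp upstream lay inside sites in the subunits. The downstream side held more in 57 of 75 subunits and less in 11. For all island genes the medians were 879 bp downstream and 554 bp upstream. The downstream side held more in 7638 island genes and less in 2084. Higher cover downstream is therefore not particular to the subunits.

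**Figure D3:**
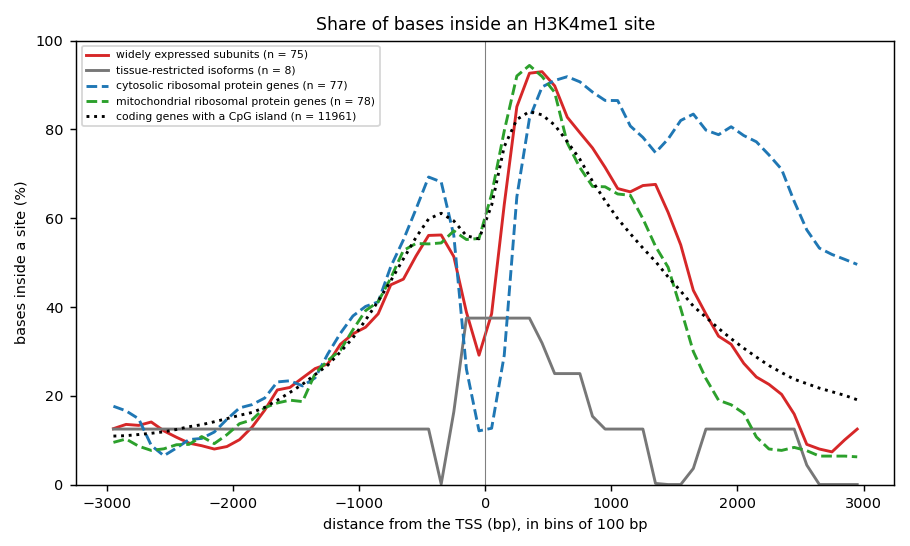
Share of bases inside an H3K4me1 site (y axis, %) by distance from the TSS (x axis, bp, in bins of 100 bp), averaged over the genes of each list. The subunit curve dips to 29.2% before the TSS and peaks at 93.0% downstream, the cytosolic ribosomal protein genes dip to 12.1%, and the island genes stay at 55.4% or more in the 500 bp on each side.

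Complex I passes electrons from NADH to ubiquinone. Of its 36 subunits counted here, 18 had a free TSS with both flanks marked, 11 had the TSS inside a site, 6 had a downstream site only and Ndufs3 had none. None of the 7 core subunits, which carry the flavin and iron-sulphur centres, had the TSS inside a site. Ndufs1, Ndufs8 and Ndufv1 were marked on both flanks, and Ndufs7 and Ndufv2 downstream only. All 11 inside cases were accessory subunits, out of 29: Ndufa11, Ndufa12, Ndufb2, Ndufb3, Ndufb6, Ndufb7, Ndufb9, Ndufc1, Ndufc2, Ndufs5 and Ndufs6. Of the other accessory subunits, Ndufa3, Ndufa5, Ndufb4 and Ndufs4 were marked downstream only, and Ndufa1, Ndufa2, Ndufa6, Ndufa7, Ndufa8, Ndufa9, Ndufa10, Ndufa13, Ndufab1, Ndufb5, Ndufb8, Ndufb10, Ndufb11 and Ndufv3 on both flanks. With 7 core genes, 0 has an upper bound of 35.4%, and the accessory share was 37.9% (22.7 to 56.0). The site over the Ndufb9 TSS was 3831 bp wide and ran from 3383 bp upstream to 447 bp downstream, over the start of Tatdn1, 26 bp away on the other strand.

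Complex II, succinate dehydrogenase, is the smallest and has no mitochondrially encoded subunit. In 3 of its 4 genes the TSS lay inside a site: Sdha, Sdhc and Sdhd. The site over Sdhd, a membrane anchor, was 3558 bp wide and ran from 1399 bp upstream to 2158 bp downstream. Sdhb, the iron-sulphur subunit, had its TSS in a gap of 405 bp. Ccdc127 began head to head with Sdha, 29 bp away, and Timm8b with Sdhd, 98 bp away.

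Complex III passes electrons to cytochrome c. The TSS lay inside a site in Uqcr11 and in Uqcrc2, whose sites were 4232 bp and 3142 bp wide. Uqcr10, Uqcrh and Uqcrq were marked on both flanks. Uqcrb had a single site of 417 bp, 134 bp downstream, and Uqcrfs1, the Rieske iron-sulphur protein, a site of 1405 bp, 154 bp downstream. Their nearest upstream sites were 26410 bp and 19486 bp away.

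Complex IV reduces oxygen. Cox5b was the only 1 of its 11 widely expressed genes with the TSS inside a site, which was 1848 bp wide. Cox4i1, Cox6a1, Cox7a2, Cox8a and Ndufa4 were marked on both flanks. Cox5a, Cox6b1, Cox6c and Cox7c were marked downstream only, with the nearest upstream site 7294 bp (Cox7c) to 45686 bp (Cox6c) away. Cox4i1 and Cox6a1 had nearly even flanks, with 185 bp and 186 bp free on the upstream and downstream sides of Cox4i1, and 178 bp and 172 bp in Cox6a1.

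Complex V is the ATP synthase. In its 16 genes the TSS was inside a site for Atp5c1, Atp5f1, Atp5g3, Atp5j and Atp5mpl. In Atp5mpl the site reached only 9 bp past the TSS on the upstream side, so this call rests on a few bases. Atp5b, Atp5d, Atp5g2, Atp5h, Atp5k and Atp5l were marked on both flanks, and Atp5e, Atp5g1, Atp5j2 and Atp5o downstream only. The 3 genes of the c ring, which encode the same mature protein, had 3 different arrangements: downstream only in Atp5g1, both flanks in Atp5g2 and inside in Atp5g3.

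The site-free gap over the TSS had a median of 372 bp in the 33 subunits with both flanks marked (quartiles 302 and 525 bp), against 419 bp in island genes (337 and 557 bp). The 5 shortest were 192 bp in Ndufb8, 198 bp in Ndufb10, 212 bp in Ndufa8, 229 bp in Ndufa7 and 251 bp in Ndufv3, all of them accessory subunits of complex I. The upstream edge was a narrow site in Ndufb8 (203 bp wide), Ndufb10 (217 bp), Ndufa8 (317 bp) and Ndufv3 (268 bp). With sites under 500 bp left out, these genes were marked downstream only. The 5 longest were 704 bp in Uqcrq, 663 bp in Ndufb11, 609 bp in Atp5b, 570 bp in Ndufa4 and 569 bp in Uqcrh. Among all members the longest was 730 bp, in Cox7a2l. The free part upstream of the TSS was the longer in 22 of the 33, with medians of 218 bp upstream and 159 bp downstream. In island genes with both flanks marked, the upstream part was the longer in 2146 of 2868, with medians of 273 bp and 127 bp. A longer upstream part is therefore not particular to the subunits.

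**Figure D4:**
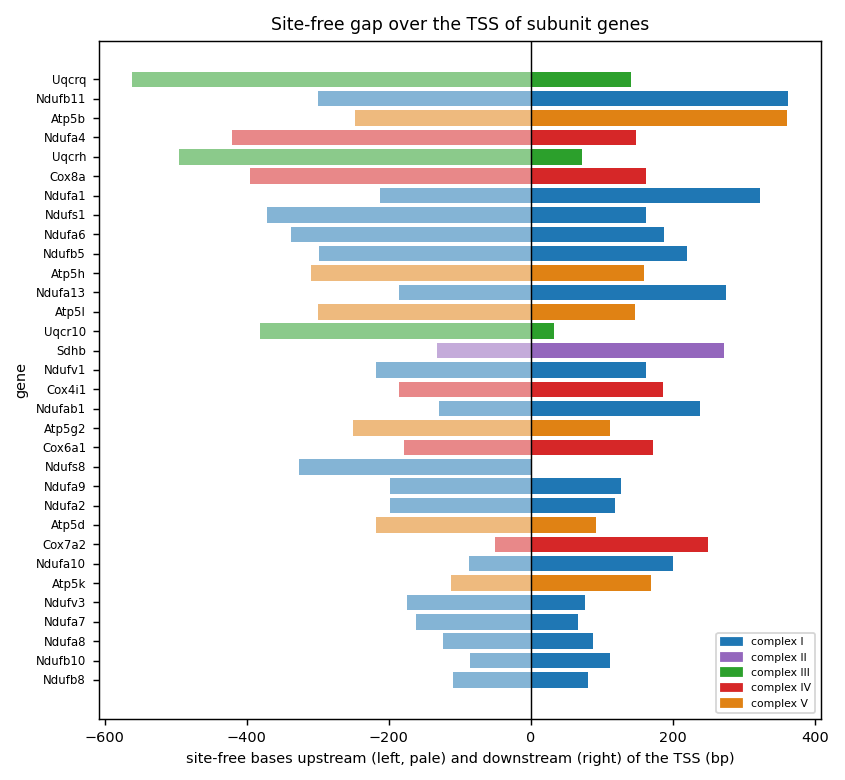
Site-free bases upstream (left, pale) and downstream (right) of the TSS in bp, 1 row for each subunit gene shown with both flanks marked, coloured by complex and ordered by the length of the gap. The gaps run from 192 bp in Ndufb8 to 704 bp in Uqcrq.

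In the 22 subunits with the TSS inside a site, that site was 1291 to 4232 bp wide, with a median of 1964 bp. It reached further downstream than upstream in 16 of the 22. This was not counted for other genes. Over island genes, site cover within 1 kb was also higher downstream (75.25% of bases) than upstream (52.26%). In the 16 subunits marked downstream only, the site began 14 to 256 bp after the TSS, with a median of 144 bp. No site was listed within 3 kb upstream in 13 of these 16.

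Some subunit genes began head to head with another coding gene. A coding TSS on the other strand lay between 1000 bp upstream and 100 bp downstream in 19 of 75 subunits (25.3%), against 12.4% of all island genes, and in 17 of the 19 it was within 200 bp. Examples were Ndufa7 with Rps28, 10 bp apart, Ndufs1 with Eef1b2 and Ndufb11 with Rbm10, both 3 bp apart, and Cox4i1 with Emc8, 101 bp apart. Such a partner was also found for 31.2% of assembly factors and 26.9% of mitochondrial ribosomal protein genes, and for 10.4% of cytosolic ribosomal protein genes. A head-to-head start is therefore not particular to the subunits. Of the 19 subunits, 1 (Ndufa5) was marked downstream only, against 1.62% of island genes with such a partner. Of the 56 without a partner, 15 were marked downstream only (26.8%), against 12.2% of island genes without one. Sites upstream of a paired gene can lie over its partner and cannot then be assigned to either gene.

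Of the restricted isoforms of complex IV, none had a CpG island. In 3 of 8 (37.5%, 13.7 to 69.4) the TSS lay inside a site, against 20.0% of all protein-coding genes without a CpG island, a share within that interval. They were Ndufa4l2, which hypoxia induces, Cox6b2, known from testis, and Cox7a1, known from heart and skeletal muscle. Sites covered 5025 of the 6001 bp around the Ndufa4l2 TSS, against 2051 bp at Ndufa4, although Ndufa4l2 had the lowest CpG ratio of the members (0.19). The sites at Cox6b2 and Cox7a1 were the only ones within 3 kb of those starts, at 1051 bp and 700 bp wide. None of the 3 had the free TSS that Ndufa4 and Cox7a2, the widely expressed partners of Ndufa4l2 and Cox7a1, showed.

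The other 5 isoforms had no site within 3 kb. Sites were listed within 3 kb in 38.9% of genes without an island, so 3 of 8 isoforms is close to that background. Cox6a2 (chr7:128205435-128206387, minus strand), of heart and skeletal muscle, was 27481 bp from the nearest site, and Cox8b (chr7:140898945-140900446, minus strand) was 8023 bp away. The testis isoforms Cox8c (chr12:102899316-102900526, plus strand) and Cox7b2 (chr5:71442824-71548205, minus strand) were 19763 bp and 109366 bp away. Cox4i2 (chr2:152754173-152765037, plus strand), of lung and hypoxic cells, had no site at its TSS but 2 within its body, the nearer a site of 2470 bp at chr2:152757297-152759766 whose centre was in the third intron. The widely expressed partners Cox4i1, Cox6a1 and Cox8a were all marked on both flanks. Cox7b and Cox7b2 were the only pair in which neither gene had a site within 3 kb.

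Over the gene, from the first to the last annotated base, 78 of 86 members had at least 1 site, against 72.8% of all protein-coding genes. Among the subunits alone it was 71 of 75 (94.7%), and the share over island genes was also 94.7%. The subunits had a median of 1 site, and sites covered a median of 21.6% of the gene, against 2 sites and 6.47% over all protein-coding genes. Over island genes, which are longer, the medians were 3 sites and 12.03%. Most sites over the subunit genes were promoter sites of short genes. Of the 134 sites over subunit genes, 75 were centred in the first intron, 35 in later introns and 6 in the first exon, and 27 in 16 genes lay beyond 3 kb of the TSS. Ndufs4, an accessory subunit of complex I and the longest of the subunit genes at 100464 bp, had 6 sites, the most of any subunit, of which 4 were centred in the first intron between 8640 and 27187 bp from the TSS. Cox5a had 5 sites, and 4 each were found in Ndufa13, Cox6c, Atp5c1, Atp5d and Atp5g2. The read-through entry of Atp5o, 242585 bp long and kept apart here, had 35 sites, and Atp5s had 6.

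Of the 48 assembly factors, which build the complexes without being part of them, 47 had a site within 1 kb, the exception being Cox20. The TSS was inside a site in 32 of them (66.7%, 52.5 to 78.3) and free with both flanks marked in 10 (20.8%). All 12 regulators had a site within 1 kb, among them Nrf1, Gabpa, Tfam and Ppargc1a. Cycs, the somatic cytochrome c, was marked on both flanks with a gap of 330 bp, and the testis form Cyct had its nearest site 9544 bp away. Among other housekeeping lists, the TSS was inside a site in 43 of 78 mitochondrial ribosomal protein genes (55.1%, 44.1 to 65.7) and in 9 of 77 cytosolic ones (11.7%, 6.27 to 20.7). Both flanks were marked around a free TSS in 18 (23.1%) and in 53 (68.8%) of them. The shares of the oxidative phosphorylation subunits lay between those of the 2 ribosomal lists on both counts, and no test of these differences was made.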

How the data were processed

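H3K4me1 ChIP-seq of 12 libraries and 2 inputs was used as deposited. To make the peaks, the authors ran Trim Galore, BWA against mm10, SAMtools filtering, Picard to merge replicates, and MACS2 in broad mode. Versions and thresholds are not given in the sources used here. The deposited table holds the start and end of each peak over all samples. Depth per library is unknown. The submitters' notes also name deepTools and DESeq2, neither of which was used here.

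Positions were compared with GENCODE M21 on GRCm38.p6 in Python 3.11.15 (numpy 2.4.6, pandas 2.3.3, scipy 1.17.1, matplotlib 3.10.9). Release M25, which the methods name, was not used. The reference transcript of a gene was its coding transcript of best APPRIS rank, then support level, CCDS membership and most upstream TSS. A site counted within a window at an overlap of 1 bp. CpG islands of at least 200 bp were called on the repeat-masked sequence (GC content over 50%, CpG ratio over 0.6). Overlap and island calling were checked on simulated data. Members, lists and alternatives were chosen with earlier results of these data known, except the 2 alternatives on the width of sites and islands that compare subunits with their background, which were added after seeing the data. The text accounts for the members by complex, with coordinates for those without a promoter site, and the 5 extremes of each ordered measure. Some items, counted in the totals, are not reported here by name or in the plots. RefSeq promoter windows of 17 members were not matched.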

Additional observations from a re-analysis of the deposited data

How the results depend on the processing

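Of 39 alternatives over 12 results, 33 left a count within 1.5 times, or a median within 1 SD, of the value given, and 6 did not. With sites under 500 bp left out, the members with a free TSS and a site on both flanks numbered 18 in place of 34, and the subunits among them 17 in place of 33. With sites within 1 kb of each other merged, that number was 0, the members with the TSS inside a site numbered 60 in place of 26, and no gap was left to measure, which follows from merging across gaps shorter than 1 kb. With islands of at least 500 bp, 34 of 86 members had an island in place of 72, and 32 of 75 subunits in place of 70. Both values for the subunits were chosen after seeing the data. The count of members with a site within 1 kb ran from 69 (site centre in the window) to 76, apart from 64 of the 69 members with a RefSeq start. The most upstream TSS changed the arrangement in Ndufs7, Ndufa12, Atp5d and Atp5g2, and it left Cox7a2l without a site within 1 kb. The share of genes with a free TSS therefore depends on the caller's gaps between sites. No paired analysis was possible because the sites are listed as 1 set, with no value for any replicate.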
